A study of Mus musculus with 10 samples.

Results

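The 5 untreated libraries of the mouse small cell lung cancer (mSCLC) line of the series were compared with each other, controls 1 to 3 against controls 4 and 5. They are 5 of the 10 libraries of the series; the other 5 received stiripentol, an antiseizure drug that the study examined as an inhibitor of respiration. The 2 sets were told apart by a property of the deposited table alone. A gene with no reads was given a log2 CPM (the log2 of counts scaled to a common library size) of -4.82 in controls 1 to 3 and of -4.74 in controls 4 and 5, so that the 2 sets had not been put on the log scale with the same constant. The labels name all 5 libraries as controls, cultured for 48 h with the solvent DMSO, and nothing in the sources says what separates them. A batch of processing, a batch of culture and a state of the cells therefore cannot be told apart. The study's printed table numbers the libraries otherwise, going by values such as those of mt-Nd4. Its controls 1 and 2 are controls 4 and 5 here, and its controls 3 to 5 are controls 1 to 3 here. Of 26335 rows in the table, 12481 genes had a mean log2 CPM above 0 over the 5 controls and were tested.

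The line was grown from a primary lung tumour of a mouse model in which Rb1 and Trp53 are deleted conditionally. It is 1 line, and nothing in the labels says that its libraries came from separate cultures or animals, so the p-values measure the spread between these libraries, which may be technical. Small cell lung cancer is usually a neuroendocrine tumour driven by lineage transcription factors, but it also occurs in forms without neuroendocrine genes, among them forms with Yap1 or with the tuft cell factor Pou2f3. Cells in culture also shift between programmes of growth, adhesion, matrix production and stress defence with density, medium and passage. In bulk RNA, fewer cells of a type and less RNA per cell cannot be told apart.

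Controls 1 to 4 held between 57991647 and 65299372 reads, and control 5 held 22375625. Across the tested genes, Pearson's r between libraries of 1 set was 0.983 to 0.997 in controls 1 to 3 and 0.990 in controls 4 and 5, and it was 0.919 to 0.938 between the sets. These are correlations across genes, which are not independent replicates. Controls 1 and 2 lay closest together, with a median absolute log2 difference of 0.0839, whereas control 3 differed from each of them by 0.212. The first principal component of the 5 libraries carried 84.0% of the variance and put control 3, at -26.1, between controls 1 and 2, at -42.3 and -40.9, and controls 4 and 5, at 53.7 and 55.5. Control 3 thus stood apart from the other libraries of its set, and its own value is given with the results.

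**Figure D1:**
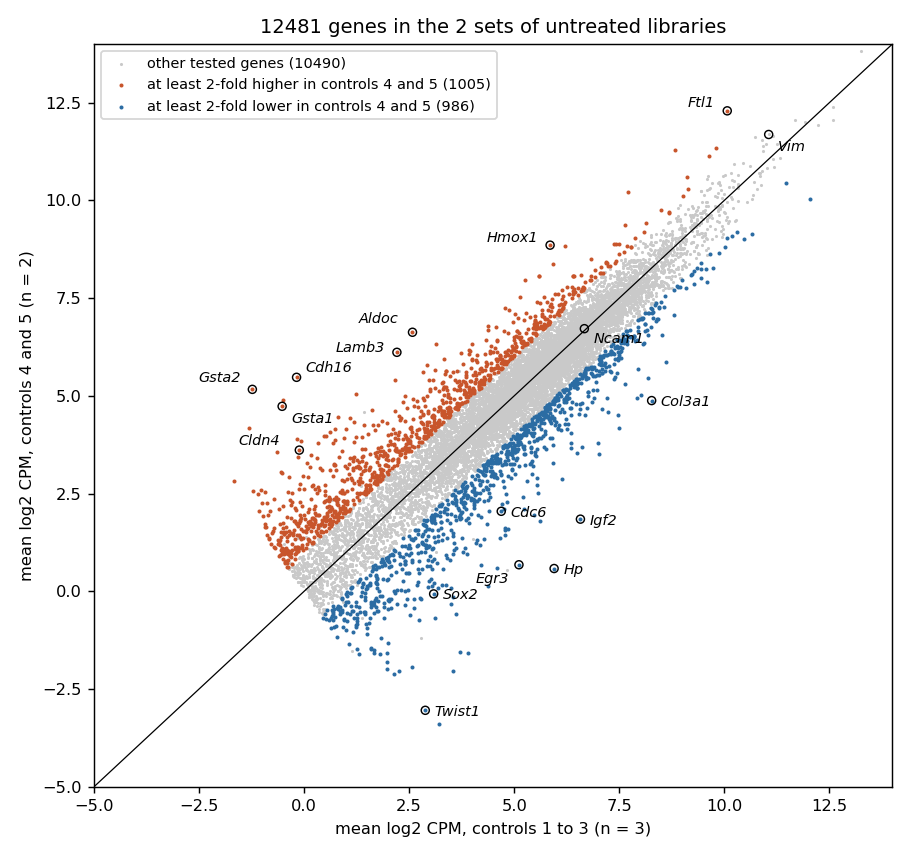
Mean log2 CPM of each tested gene in controls 1 to 3 (horizontal axis) and controls 4 and 5 (vertical axis), with the line of equal values. The coloured points are the 1005 genes that were called, non-overlapping and at least 2-fold higher in controls 4 and 5 and the 986 that were at least 2-fold lower; circles mark genes described in the text, and Ncam1 lies near the line while Vim lies slightly above it.

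The question this comparison addresses is how far untreated cells of 1 line differed between the 2 sets. With limma on the deposited log2 CPM and Benjamini-Hochberg adjustment over all tested genes, 6440 of 12481 genes passed an adjusted p of 0.05 (51.6%). Of these, 3285 were higher (26.3%) and 3155 lower (25.3%) in controls 4 and 5. Since about 1 gene in 2 was called, a list of genes with a like share of calls says nothing about that list. A stricter rule of size, with every library of one set above every library of the other and an absolute log2 difference of at least 1, was met by 1991 genes (16.0%), of which 1005 were higher (8.05%) and 986 lower (7.9%). Without the size limit and the test, 8865 genes did not overlap between the sets (71.0%), and 7298 had an unadjusted p below 0.05 (58.5%). The median difference over all tested genes was 0.01 and the median SE 0.133. The number of calls fell to 4822 without control 1 and to 4924 without control 2, and rose to 8355 without control 3. It fell further without control 4 or control 5, the libraries of the smaller set. It was known from earlier results of these data that the same libraries also stand apart by expression, so the calls describe size against spread and are no independent support for 2 states.

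The label of the line was checked first. Several defining neuroendocrine genes were absent or low in all 5 controls. Syp, the vesicle protein synaptophysin, lay between -2.98 and -1.39 log2 CPM. Of 31 neuroendocrine and neuronal genes in the table, 4 had 0 reads and 8 had at most 3 reads in all 5 controls, and 14 were high enough to be tested. Neurod1, Chga and Calca were not analysed here. Ncam1, a neural adhesion molecule used as a marker of small cell cancer, was present in every library at 6.54 to 6.88 log2 CPM and did not pass the test (difference 0.05, SE 0.12). The epithelial adhesion genes Epcam and Cdh1 were also close to absent, Epcam with 1 read in control 5 and 0 elsewhere, and Cdh1 between -2.19 and -0.59 log2 CPM. Present at high levels in all 5 were the intermediate filament gene Vim, at 11.03 to 11.72 log2 CPM, the transcriptional co-activator gene Yap1, at 7.17 to 7.46, the repressor of neuronal genes Rest, at 6.25 to 6.63, and the mesenchymal factor Zeb1, at 6.52 to 6.90. The keratins Krt8 and Krt18, which are epithelial, were high too, Krt8 between 10.03 and 10.31 and Krt18 between 10.18 and 10.54. Of these genes, Vim was called 1.55-fold higher in controls 4 and 5 (adjusted p = 0.00405) and Yap1 1.18-fold lower (adjusted p = 0.0486), a Yap1 call that was lost without any one library other than control 3. In both sets, therefore, the small cell cancer label was not matched by Syp, which lay below 1 CPM, while Ncam1 was present.

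The 2 genes deleted in the mouse model were read at low level in all 5 libraries. Rb1 was at 2.02, 2.22 and 2.39 log2 CPM in controls 1 to 3 and at 2.94 and 3.50 in controls 4 and 5 (2.02-fold higher, adjusted p = 0.00639). Trp53 was at 1.87, 1.54 and 1.08 in controls 1 to 3 and at -0.20 and 0.46 in controls 4 and 5 (2.57-fold lower, adjusted p = 0.0102). Reads outside the deleted exons are counted with these genes, so their levels do not check the deletion. Without control 5 the Rb1 call was lost, and without control 4 the Trp53 call was lost.

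Many genes had like levels in all 5 controls. Of the tested genes, 4497 varied by less than 0.5 log2 CPM over all 5 libraries (36.0%) and 9031 by less than 1 (72.4%). The 10 genes of highest mean log2 CPM among those with a range below 0.5 were Hsp90ab1 (a cytosolic chaperone), Actg1 (cytoplasmic actin), Pabpc1 (poly(A)-binding protein), Nedd4 (a ubiquitin ligase), Rplp0, Rpsa and Rpl4 (ribosomal proteins), Rack1 (a ribosome-bound scaffold), Tubb5 (tubulin) and Itgb1 (integrin beta chain). Hsp90ab1 was at 12.07, 12.03 and 11.66 log2 CPM in controls 1 to 3 and at 12.02 and 12.01 in controls 4 and 5. Itgb1 stayed between 10.25 and 10.45. These genes were chosen for their narrow range, so no test between the sets is given for them.

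The genes with the largest differences were chosen by their size, which is given here as a description, among genes with a mean of at least 4 log2 CPM in the higher set. Trpa1 and Twist1, whose fitted differences were larger than that of Hp, lay below that level and are given further on. On the lower side in controls 4 and 5 stood Hp (haptoglobin, an acute phase protein), Igf2 (an imprinted fetal growth factor), Egr3 (an immediate early factor), Medag, Ace (angiotensin-converting enzyme), Pappa2 (a protease of IGF-binding proteins), Neto2, Tmem119, Col3a1 (a fibrillar collagen), Slc25a13 (a mitochondrial aspartate-glutamate carrier), Fstl1 and Slc7a2 (a cationic amino acid transporter). They were 9.77- to 41.3-fold lower. Hp was at 5.77, 6.31 and 5.77 log2 CPM in controls 1 to 3 and at 0.57 and 0.60 in controls 4 and 5, a difference of -5.37 (SE 0.19, adjusted p = 1.51e-05). Igf2 was at 6.48, 6.50 and 6.74 against 1.91 and 1.78, a difference of -4.73 (SE 0.12, adjusted p = 7.65e-06). For both genes the sets were far apart and control 3 lay with controls 1 and 2.

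On the higher side stood Gsta2 and Gsta1 (alpha-class glutathione S-transferases), Cdh16 (kidney-type cadherin), Csf2rb (a shared cytokine receptor chain), Aldoc (aldolase C), Lamb3 (a laminin chain of epithelial basement membrane), Ptgds (prostaglandin D synthase), Padi3, Ndrg2, Trim54, Syt8 and Psca. They were 9.47- to 84.3-fold higher. Gsta2 was at -1.42, -1.33 and -0.94 log2 CPM in controls 1 to 3 and at 5.13 and 5.20 in controls 4 and 5, a difference of 6.40 (SE 0.22, adjusted p = 1.51e-05). Cdh16 was at 0.26, -0.10 and -0.70 against 5.41 and 5.54, a difference of 5.65 (SE 0.28, adjusted p = 4.12e-05). Csf2rb was at -2.41, -1.61 and 0.06 against 4.19 and 4.17, so that control 3 lay above its own set, though well below the other (difference 5.50, SE 0.63, adjusted p = 0.000606). Gsta1 and Gsta2 are near-identical copies, and how the authors' counting shared reads between them is not given in the sources used here.

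**Figure D2:**
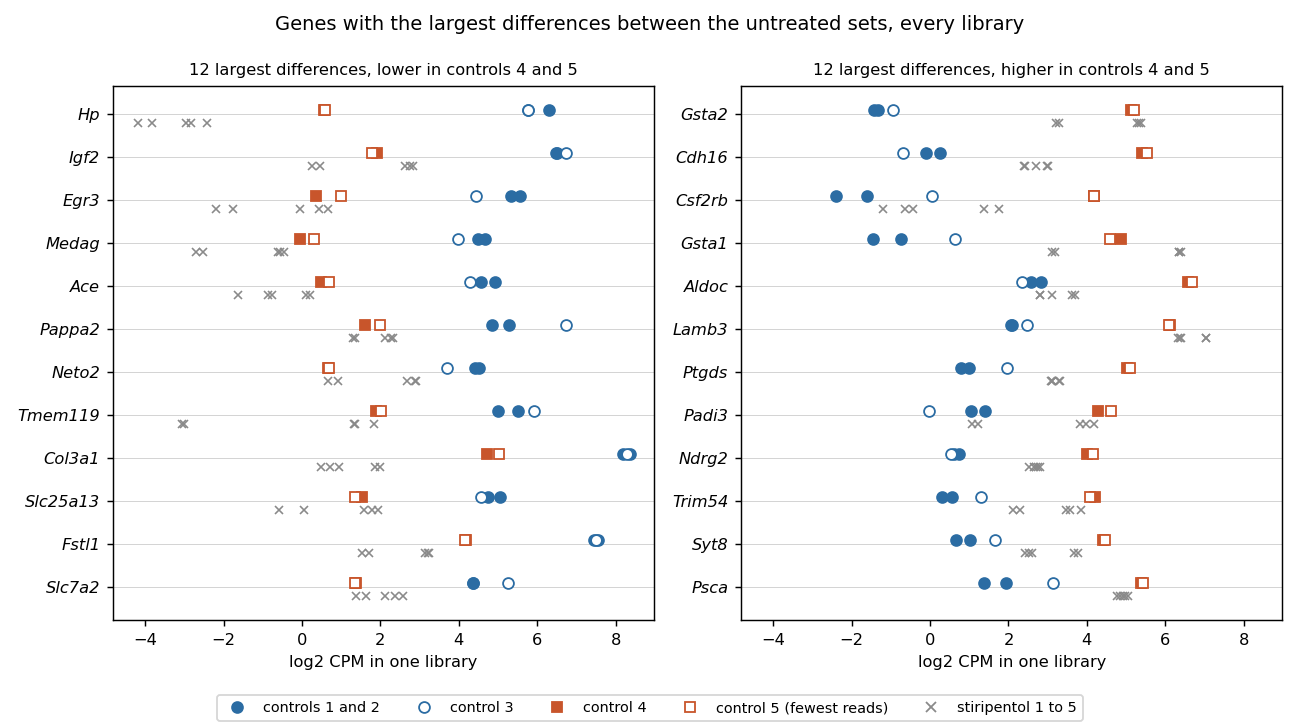
Log2 CPM in every library for the 12 genes with the largest difference in each direction among those with a mean of at least 4 in the higher set; circles are controls 1 to 3 (open circle, control 3), squares controls 4 and 5 (open square, control 5), and crosses the 5 stiripentol libraries, which entered no test. The 2 control sets do not overlap for any of the 24 genes, and for Hp all 5 crosses lie below every control.

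Some genes were listed in 1 set only, with at most 3 reads in every library of one set and at least 100 in every library of the other. Those were Trpa1, Lrch2 and the predicted gene Gm9747, all present in controls 1 to 3, and none was present only in controls 4 and 5. Trpa1, a cation channel gated by irritants, had 868, 492 and 447 reads in controls 1 to 3 and 1 and 3 reads in controls 4 and 5, which is at least 106-fold lower when 3 reads are allowed in each library. Lrch2 had 224, 201 and 258 reads against 1 and 1, at least 40.3-fold lower.

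Genes of cell division were lower in controls 4 and 5. All 25 tested G2 and mitosis genes and 24 of 26 S phase genes were called lower, with none called higher, and the medians of the difference were -1.10 and -1.14 against 0.01 over all tested genes. Cdc6, which loads the replicative helicase onto origins, was at 5.18, 4.72 and 4.18 log2 CPM in controls 1 to 3 and at 1.97 and 2.13 in controls 4 and 5 (6.25-fold lower, adjusted p = 0.00037). Rrm2, a subunit of ribonucleotide reductase, was at 6.72, 6.46 and 5.86 against 3.76 and 3.83 (5.85-fold lower, adjusted p = 0.000259). Control 3 was the lowest of its set for both genes. Birc5, the mitotic and anti-apoptotic protein survivin, was 3.99-fold lower (adjusted p = 9.53e-05) and Ccna2, cyclin A2, 2.62-fold lower (adjusted p = 0.000923). The summed level of the 25 mitosis genes was 3773, 3626 and 2878 CPM in controls 1 to 3 and 1419 and 1741 CPM in controls 4 and 5. Mki67, chosen like other members of lists outside the naming rule after its values were seen, was at 7.86 to 8.09 against 6.42 and 7.11, so that it stayed well expressed in every library. When any 1 control was left out, 19 to 25 of the mitosis genes and 17 to 25 of the S phase genes were called lower.

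The regulators of the G1 phase moved less. Ccnd1, cyclin D1, was at 9.17, 9.03 and 8.65 log2 CPM against 7.74 and 7.81 (2.26-fold lower, adjusted p = 0.00101). The CDK inhibitor Cdkn1a was 1.54-fold higher (adjusted p = 0.00497) and the pocket protein gene Rbl2 1.63-fold higher (adjusted p = 0.00211), whereas the pocket protein gene Rbl1 was 1.70-fold lower (adjusted p = 0.0155). Of 14 tested D cyclins and CDK inhibitors, 4 were called higher and 7 lower, and the lower calls numbered 3, 4, 2 and 3 without control 1, 2, 4 and 5, while the higher calls fell to 2 without control 5. Myc, a driver of growth and ribosome production, was at 7.65, 7.69 and 7.45 against 6.42 and 6.56 (2.15-fold lower, adjusted p = 0.000325). Its relative Mycl, often amplified in small cell cancer, was at 2.59, 2.78 and 1.84 against 0.19 and -0.17 (5.27-fold lower, adjusted p = 0.000933), and Mycn, at low level, was 2.26-fold higher (adjusted p = 0.00629). Cdkn1a and Mycn lost their calls without control 5, and Rbl1 without control 4 or control 5.

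Genes of ribosome biogenesis, a list added after values were seen, were lower too. Of 24, 19 were called lower and none higher, with a median of -1.19. The nucleolar helicase Ddx21 was at 7.86, 7.81 and 7.25 log2 CPM against 5.34 and 5.28 (5.02-fold lower, adjusted p = 0.000177), and Rrp12, needed to export ribosomal subunits, was 4.75-fold lower (adjusted p = 0.00018). The genes of the ribosomal proteins themselves did not share this direction, since 32 of 85 were called higher and 5 lower, 43.5% in all against 51.6% of all tested genes. Their median difference was 0.27, or 0.11 without control 4. That list was uneven within the smaller set, with a summed level of 61088 CPM in control 4 and 51773 CPM in control 5, and the higher calls numbered 10 without control 4 and 18 without control 1 or control 2, while the lower calls fell to 2 without control 1 or control 2 and to 1 without control 5.

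Promoter letters are shown for 2 S phase genes and 2 hypoxia genes, chosen because their windows hold a motif searched and their differences are large in their lists. Rrm2, second in the S phase list, held neither E2F motif in its window and is not shown. Windows of 300 bases, 250 before and 50 after the annotated start, came from RefSeq on GRCm38.p6, the first window listed for each gene, and 9259 tested genes had one. The motifs were chosen after the list results were known. The E2F letters TTTGGCGC, on either strand, were in the windows of 5 of 21 S phase genes (23.8%) and of 1.09% of all tested genes, and TTTCCCGC in 3 of 21 (14.3%) and 2.27%. Neither was in any of the 21 mitosis gene windows. The letters TACGTG, part of a hypoxia response element, were in 7 of 25 windows of hypoxia and glycolysis genes (28%) and in 3.63% of all. The letters TGACNNNGC of the antioxidant response element were in 5 of 14 windows of NRF2 targets (35.7%), in 2 of 14 of glutathione S-transferase genes (14.3%) and in 14.9% of all, and the interferon-stimulated element, searched as GAAA, any 2 bases and GAAA, in 17 of 29 windows of interferon response genes (58.6%) and in 3% of all. A match is a description of the letters and not a site in use. The windows are printed in the direction of transcription with the match in capitals, for Cdc6 (chr11:98907901-98908200, plus strand), Mcm5 (chr8:75109259-75109558, plus strand), Aldoc (chr11:78322823-78323122, plus strand) and Ankrd37 (chr8:45999801-46000100, minus strand).
Cdc6: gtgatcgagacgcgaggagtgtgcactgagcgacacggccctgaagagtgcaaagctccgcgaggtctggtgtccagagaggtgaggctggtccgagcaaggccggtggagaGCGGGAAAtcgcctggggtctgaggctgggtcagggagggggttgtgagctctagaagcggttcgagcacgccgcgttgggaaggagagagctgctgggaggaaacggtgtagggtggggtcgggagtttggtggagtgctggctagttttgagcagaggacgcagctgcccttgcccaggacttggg
Mcm5: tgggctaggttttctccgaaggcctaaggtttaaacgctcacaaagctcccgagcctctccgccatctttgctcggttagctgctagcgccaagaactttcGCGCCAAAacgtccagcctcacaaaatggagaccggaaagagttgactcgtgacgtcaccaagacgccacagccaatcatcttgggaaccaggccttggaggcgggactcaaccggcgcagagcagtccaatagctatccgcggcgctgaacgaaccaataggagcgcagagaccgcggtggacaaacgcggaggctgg
Aldoc: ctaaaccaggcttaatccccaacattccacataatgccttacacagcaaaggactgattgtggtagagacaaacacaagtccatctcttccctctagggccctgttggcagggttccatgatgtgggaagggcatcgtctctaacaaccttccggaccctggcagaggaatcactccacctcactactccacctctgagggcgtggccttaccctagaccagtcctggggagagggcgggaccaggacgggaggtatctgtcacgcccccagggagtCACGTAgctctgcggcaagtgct
Ankrd37: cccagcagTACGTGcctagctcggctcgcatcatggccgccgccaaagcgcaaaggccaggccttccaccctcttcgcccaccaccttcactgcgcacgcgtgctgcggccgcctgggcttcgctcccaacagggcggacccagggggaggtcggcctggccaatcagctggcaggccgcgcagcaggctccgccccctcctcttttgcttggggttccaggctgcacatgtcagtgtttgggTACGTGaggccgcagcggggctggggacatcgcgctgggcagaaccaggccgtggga

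Genes of hypoxia and glycolysis were higher in controls 4 and 5. Of 28 tested, 20 were called higher and none lower, with a median of 0.83, and 15 to 23 were called higher when any 1 control was left out. Aldoc, whose promoter is shown above, was at 2.56, 2.84 and 2.33 log2 CPM in controls 1 to 3 and at 6.58 and 6.67 in controls 4 and 5 (16.5-fold higher, adjusted p = 2.51e-05). Ankrd37, a hypoxia-induced ankyrin protein, was at 1.16, 1.46 and 0.08 against 3.74 and 3.46 (6.50-fold higher, adjusted p = 0.00139). Bnip3, a mitophagy receptor induced by low oxygen, was at 5.45, 5.79 and 5.52 against 8.12 and 7.99, and Pdk1, which restrains the oxidation of pyruvate, was at 5.68, 6.02 and 5.66 against 7.40 and 7.41. Control 3 lay with controls 1 and 2 for these genes, or, for Ankrd37, farther from controls 4 and 5. Not every member moved: Vegfa, an angiogenic factor, differed by -0.17 and Ddit4 by -0.02, and neither passed.

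Genes that detoxify reactive compounds were higher as well. Of 18 tested targets of NRF2, the factor that answers oxidative and electrophilic stress, 13 were called higher and 1 lower, with a median of 1.04. Hmox1, haem oxygenase, was at 5.36, 5.58 and 6.62 log2 CPM against 8.94 and 8.77 (8.01-fold higher, adjusted p = 0.000524), and Ephx1, microsomal epoxide hydrolase, was at 4.23, 4.35 and 4.40 against 6.44 and 6.42 (4.29-fold higher, adjusted p = 4.07e-05). G6pdx, the entry enzyme of the pentose phosphate pathway, was 1.40-fold lower (adjusted p = 0.036), a call that was lost without control 1, 2, 4 or 5. Nfe2l2, which encodes NRF2 itself, differed by -0.35 and did not pass. Nqo1, a quinone reductase, was too low to be tested and had 11, 6 and 11 reads in controls 1 to 3 and 237 and 93 in controls 4 and 5. Between 13 and 14 were called higher when any 1 control was left out. Of 15 glutathione S-transferase genes, a list added after values were seen, 12 were called higher and 2 lower, with a median of 1.25. Beside Gsta1 and Gsta2 these included Gstm1, at 5.15, 5.16 and 5.45 against 7.90 and 8.03, and Gstp1, at 7.59, 7.55 and 7.77 against 9.41 and 9.33. The 2 lower members were Gstcd and Gsto1.

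A list of ferritin and other iron-related genes, also added after values were seen, had 4 of 8 called higher and 2 lower, 75% in all against 51.6% of all tested genes. It held Hmox1, counted above among the NRF2 targets, and its 2 lower calls were Tfrc and Slc11a2. Ftl1, the ferritin light chain, was at 9.76, 9.96 and 10.49 log2 CPM against 12.40 and 12.18 (4.66-fold higher, adjusted p = 0.000325), with 343911 reads in control 4 alone, and the heavy chain gene Fth1 was at 10.51, 10.66 and 11.05 against 11.70 and 11.56. Tfrc, the transferrin receptor that brings iron in, was at 6.76, 6.53 and 5.26 against 4.72 and 4.47 (3.00-fold lower, adjusted p = 0.0136), and Slc11a2, an iron transporter, was 1.85-fold lower (adjusted p = 0.000505). Within its set, control 3 lay nearest to controls 4 and 5 for Ftl1, Fth1 and Tfrc. The Tfrc call was lost without control 4 or control 5, and Ftl1 has many near-identical pseudogenes that can share its reads.

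Interferon response and antigen presentation genes were higher in controls 4 and 5. Of 36 tested interferon response genes, 23 were called higher and none lower, with a median of 0.84, and 16 to 27 were called when any 1 control was left out. Ifi27l2a was at -1.31, -0.73 and -1.17 log2 CPM against 2.22 and 1.87 (8.65-fold higher, adjusted p = 0.000298), and the antiviral membrane protein gene Ifitm1 was at 1.85, 2.02 and 0.39 against 4.17 and 4.37 (7.20-fold higher, adjusted p = 0.00212). Irf7 and Irf9, factors of the response, differed by 1.92 and 1.44, whereas Isg15, a ubiquitin-like protein, differed by 0.16 and did not pass. Of 15 tested genes of MHC class I and antigen processing, 14 were called higher and none lower, with a median of 0.91, and the exception was Nlrc5. H2-T23 was at 3.69, 3.96 and 3.89 against 5.57 and 5.63 (3.37-fold higher, adjusted p = 0.000128), and the classical class I gene H2-K1 at 6.46, 6.65 and 6.85 against 7.74 and 7.78 (2.15-fold higher, adjusted p = 0.000588). Class I genes are near copies of each other, so that reads could be split among them.

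Inflammatory genes went the other way. Of 17 tested acute phase and NF-kB target genes, 11 were called lower and 2 higher, with a median of -0.70, and 8 to 11 were called lower when any 1 control was left out. Beside Hp, the iron-binding protein gene Lcn2 was at 3.84, 4.06 and 4.40 log2 CPM against 1.33 and 1.29 (6.93-fold lower, adjusted p = 0.000109), and the adhesion molecule gene Vcam1 at 8.08, 7.87 and 8.63 against 5.30 and 5.61. Icam1 was 1.79-fold higher (adjusted p = 0.00165) and Tnfaip2 1.29-fold higher (adjusted p = 0.0315), though the Tnfaip2 call was lost without control 1, 4 or 5. Nfkbia, the inhibitor that NF-kB itself induces, differed by -0.14 and did not pass.

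**Figure D3:**
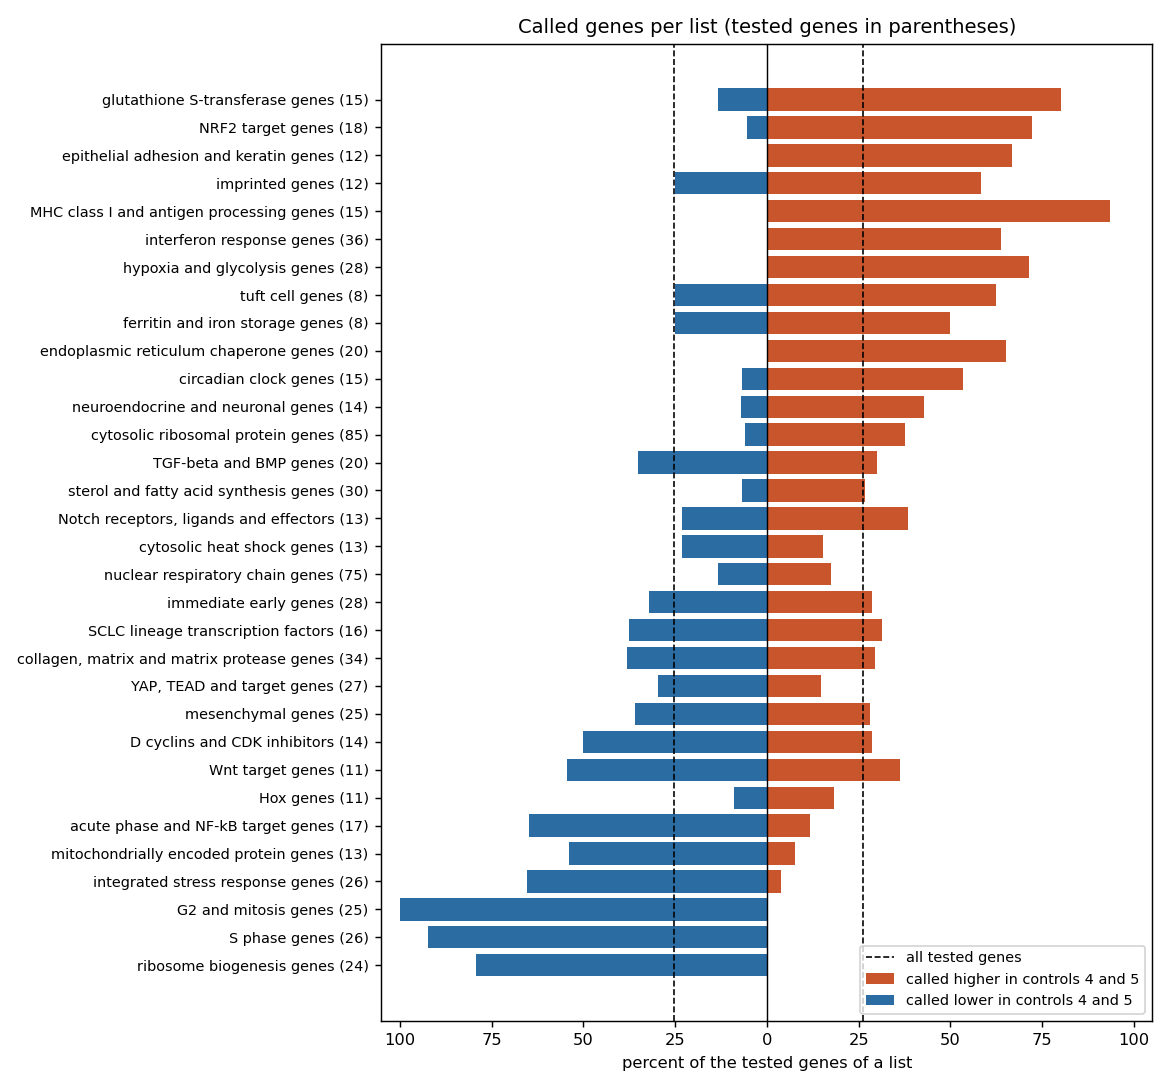
Percent of the tested genes of each list that were called higher (right) or lower (left) in controls 4 and 5, for lists with at least 8 tested genes, ordered by median difference; dashed lines are the 26.3% and 25.3% of all tested genes. Mitosis, S phase and ribosome biogenesis genes have lower calls only, and MHC class I, interferon, hypoxia, epithelial and endoplasmic reticulum chaperone genes have higher calls only.

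Genes that define the shape and attachment of cells differed member by member. Of 12 tested epithelial adhesion and keratin genes, 8 were called higher and none lower, with a median of 1.03. The tight junction genes led, Cldn4 at -0.50, 0.10 and 0.06 log2 CPM against 3.65 and 3.57 (13.2-fold higher, adjusted p = 9.98e-05) and Ocln at 1.30, 1.49 and 0.74 against 3.38 and 3.46 (4.74-fold higher, adjusted p = 0.000481). Krt19 was at 6.68, 6.73 and 7.10 against 8.50 and 8.49, whereas Krt8 and Krt18 did not pass. Of 25 mesenchymal genes, 9 were called lower and 7 higher, and the latter numbered 2 without control 4 and 3 without control 5. The transcription factors Twist1, Prrx1, Twist2, Snai1, Snai2 and Zeb2 were called lower, whereas Zeb1 differed by 0.01 (adjusted p = 0.973). Twist1 was at 2.99, 3.03 and 2.64 log2 CPM against -3.11 and -2.98 (60.9-fold lower, adjusted p = 2.84e-05), with 516, 470 and 394 reads against 5 and 2, and Prrx1 was at 7.34, 7.16 and 7.19 against 4.44 and 4.73 (6.25-fold lower, adjusted p = 3.4e-05). Members that were higher included Acta2, smooth muscle actin, which was at 5.40, 5.03 and 7.34 against 8.34 and 8.39 (5.43-fold higher, adjusted p = 0.0121), and Myl9, a myosin light chain, which was at 3.14, 3.05 and 3.83 against 5.93 and 5.94 (6.03-fold higher, adjusted p = 0.000238). For Acta2, control 3 lay nearer to controls 4 and 5 than to controls 1 and 2, and the call was lost without control 4 or control 5.

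Matrix genes differed in both directions. Calls made up 67.6% of the matrix list and 64% of the mesenchymal list, against 51.6% of all tested genes. Of 34 tested collagen, matrix and matrix protease genes, 13 were called lower, or 8 without control 4, and 10 higher. Col3a1 was at 8.36, 8.18 and 8.27 log2 CPM against 4.73 and 5.03 (10.5-fold lower, adjusted p = 1.51e-05), and Mmp9, gelatinase B, at 5.03, 4.76 and 4.52 against 1.44 and 1.70 (9.18-fold lower, adjusted p = 6.32e-05). Col1a1, another fibrillar collagen, went the other way, at 6.11, 6.02 and 4.67 against 7.80 and 8.33 (5.54-fold higher, adjusted p = 0.00258). The laminins Lamb3 and Lama4 were 15.0-fold (adjusted p = 2.51e-05) and 8.14-fold higher (adjusted p = 0.000163). Col3a1, Col1a1 and Dcn are also fibroblast markers; of 6 tested fibroblast markers, 5 were called lower, or 3 without control 4 or control 5, and 1 higher, and the summed level of the 10 listed was 635 to 697 CPM in controls 1 to 3 and 404 and 523 CPM in controls 4 and 5. Markers of leukocytes summed to 6.52 to 7.99 CPM and to 19.04 and 16.6 CPM, those of lung epithelium to 13.3 to 14.7 and to 19.3 and 25.4 CPM, and those of endothelium, liver and red cells to at most 1.16 CPM in any control. The leukocyte genes tested were Cd68, 3.53-fold higher (adjusted p = 0.000599), and Lyz2, 3.14-fold lower (adjusted p = 0.00307). The part of other cells in the differences was not tested.

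Lineage factors of small cell cancer went in both directions, as did all tested genes, of which 26.3% were called higher and 25.3% lower. Sox2, a factor of progenitor and neuroendocrine cells, was at 3.53, 3.45 and 2.27 log2 CPM against -0.39 and 0.26 (8.87-fold lower, adjusted p = 0.00093), and Lmo1 was 5.46-fold lower (adjusted p = 0.00047). Pou2f3, the factor that defines the tuft cell form, was low but higher in controls 4 and 5, at -0.14, -0.18 and 1.04 against 2.04 and 2.19 (3.67-fold higher, adjusted p = 0.00617), and the endodermal factor Foxa2 was 3.44-fold higher (adjusted p = 0.000325). Of 16 tested lineage factors, 5 were called higher and 6 lower, 68.8% in all against 51.6% of all tested genes. The higher calls numbered 1 without control 5 and 3 without control 1, 2 or 4. The Pou2f3 call was lost without control 4 or control 5. Among neuroendocrine and neuronal genes, 6 of 14 were called higher and 1 lower, with 10 higher without control 3. Their share of calls, 50%, was like the 51.6% of all tested genes and says nothing about the list. The vesicle GTPase gene Rab3a was at 2.75, 2.48 and 3.09 against 4.56 and 4.68 (3.60-fold higher, adjusted p = 0.000385), Eno2 was 3.19-fold higher (adjusted p = 0.000497), Uchl1 2.97-fold higher (adjusted p = 0.0126) and Cplx2 5.71-fold lower (adjusted p = 0.000464). Of 8 tuft cell genes, 5 were called higher, or 3 without control 5, and 2 lower. Avil, an actin-binding protein of tuft cells, was 3.44-fold lower (adjusted p = 0.0485), though it ranged from -0.18 to 2.26 within controls 1 to 3. The Avil call was lost without control 1, 4 or 5, and the Uchl1 call without control 4 or control 5. Notch1 was at 6.09, 6.04 and 6.05 against 7.21 and 7.45 (2.41-fold higher, adjusted p = 0.000188), and the Notch target Hes1 did not pass (difference 0.38, adjusted p = 0.13).

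Signalling lists showed single large changes within mixed counts. Calls made up 60.7% of the immediate early list and 44.4% of the YAP list, near the 51.6% of all tested genes. Egr3 was at 5.56, 5.34 and 4.43 log2 CPM against 0.36 and 1.00 (21.6-fold lower, adjusted p = 0.000172), and the orphan receptor Nr4a1 was 4.01-fold lower (adjusted p = 0.000136), while the phosphatase Dusp4 was 2.90-fold higher (adjusted p = 0.000902). In all, 9 of 28 immediate early genes were called lower, or 4 without control 4, and 8 higher, or 5, 2 and 4 without control 2, 4 and 5. The Wnt genes Lef1 and Lgr5 were 4.62-fold (adjusted p = 0.00093) and 4.02-fold lower (adjusted p = 0.0311), while Wnt4 was 4.49-fold higher (adjusted p = 0.000164), and the Lgr5 call was lost without any one library other than control 3. Bmp2, a ligand of the BMP branch, was at 4.18, 4.04 and 4.05 against 1.39 and 1.10 (7.21-fold lower, adjusted p = 5.36e-05), while the BMP target Id3 was 2.57-fold higher (adjusted p = 0.000473). Of 27 genes of YAP and its targets, 8 were called lower and 4 higher, counts that fell to 2 and 0 without control 5, and their summed level was highest in control 3, at 8609 CPM against 5833 to 6484 CPM in the other 4.

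Stress lists were divided. Of 26 tested genes of the integrated stress response, 17 were called lower and 1 higher, with a median of -0.75. Shmt2, a mitochondrial enzyme of serine and one-carbon metabolism, was at 8.13, 8.52 and 7.54 log2 CPM against 6.40 and 6.25 (3.34-fold lower, adjusted p = 0.0014), and Stc2, a secreted glycoprotein, was at 5.83, 5.88 and 5.49 against 4.11 and 3.95 (3.25-fold lower, adjusted p = 0.000209). Ddit3 and Ppp1r15a, which mark the stress arm itself, differed by -0.07 and 0.37 and did not pass. Gdf15, a secreted target of the response that was too low to be tested, had 6, 1 and 4 reads in controls 1 to 3 and 84 and 34 in controls 4 and 5, against the direction of the list. Of the tested members, 10 were called lower without control 4 and 8 without control 5. Chaperones of the endoplasmic reticulum were higher, 13 of 20 with none lower and a median of 0.49, led by the disulphide isomerase Pdia4 (2.09-fold, adjusted p = 0.000282) and the transcription factor Xbp1 (1.97-fold, adjusted p = 0.000476). Without control 4 or without control 5, 6 of these were called. Of 13 tested heat shock genes, mostly of the cytosol, 3 were called lower and 2 higher, 38.5% in all against 51.6% of all tested genes. Among them Hspd1, which encodes a mitochondrial chaperonin, was 2.27-fold lower (adjusted p = 0.000521) and Hspb1 2.69-fold higher (adjusted p = 0.00126).

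Mitochondrially encoded genes, which the study followed under stiripentol, already differed between untreated libraries. Of 13 protein genes, 7 were called lower and 1 higher in controls 4 and 5, 61.5% in all against 51.6% of all tested genes. Their median difference was -0.75, or -0.39 without control 5 and -1.03 without control 4. Of the 2 mitochondrial rRNA genes, mt-Rnr1 was 1.70-fold higher (adjusted p = 0.0106) and mt-Rnr2 1.27-fold lower (adjusted p = 0.0419). The mt-Rnr2 call was lost without control 2. mt-Cytb was at 10.51, 11.05 and 10.43 log2 CPM in controls 1 to 3 and at 9.28 and 9.00 in controls 4 and 5 (2.87-fold lower, adjusted p = 0.001), and mt-Nd4 was at 10.25, 10.84 and 10.30 against 9.11 and 8.93 (2.72-fold lower, adjusted p = 0.00101). mt-Co3 was at 9.33, 9.50 and 9.73 against 10.52 and 9.77 (1.54-fold higher, adjusted p = 0.0494), a call that was lost without control 1, 2 or 4, with limma voom, and with scaling by the median ratio or the upper quartile. The summed level of the 13 genes spread widely inside a set as well, with 12030, 16081 and 15935 CPM in controls 1 to 3 and 10475 and 8041 CPM in controls 4 and 5. Among 75 nuclear genes of the respiratory chain, 13 were called higher and 10 lower, 30.7% in all against 51.6% of all tested genes, with a median of -0.01, and without control 4 the higher calls numbered 4 and without control 5 the lower calls 3. Ndufa6, a complex I subunit, was 1.84-fold higher (adjusted p = 0.00586, lost without control 4) and Uqcrq, a complex III subunit, 2.22-fold lower (adjusted p = 0.000562).

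Imprinted genes held some of the sharpest switches. Of 12 tested, 7 were called higher and 3 lower. H19, the maternally expressed neighbour of Igf2, was too low to be tested and had 144, 66 and 80 reads in controls 1 to 3 and 0 and 0 in controls 4 and 5, at least 16.9-fold lower against a floor of 3 reads per library. Cdkn1c, a CDK inhibitor gene also on chromosome 7, had 0, 1 and 1 reads against 86 and 32. Zrsr1, an imprinted splicing factor gene, was 3.01-fold higher (adjusted p = 0.000757), and Grb10, an adaptor of growth factor receptors, was at 5.99, 6.11 and 5.82 log2 CPM against 4.16 and 4.34 (3.31-fold lower, adjusted p = 0.000136). Of 15 circadian clock genes, a list added after values were seen, 8 were called higher, or 5 without control 5, and 1 lower. Dbp was at 2.97, 2.97 and 4.16 against 5.67 and 5.61 (4.84-fold higher, adjusted p = 0.00176) and Nr1d1 2.31-fold higher (adjusted p = 0.0016), with control 3 above controls 1 and 2 for both. Calls made up 60% of the clock list, near the 51.6% of all tested genes.

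**Figure D4:**
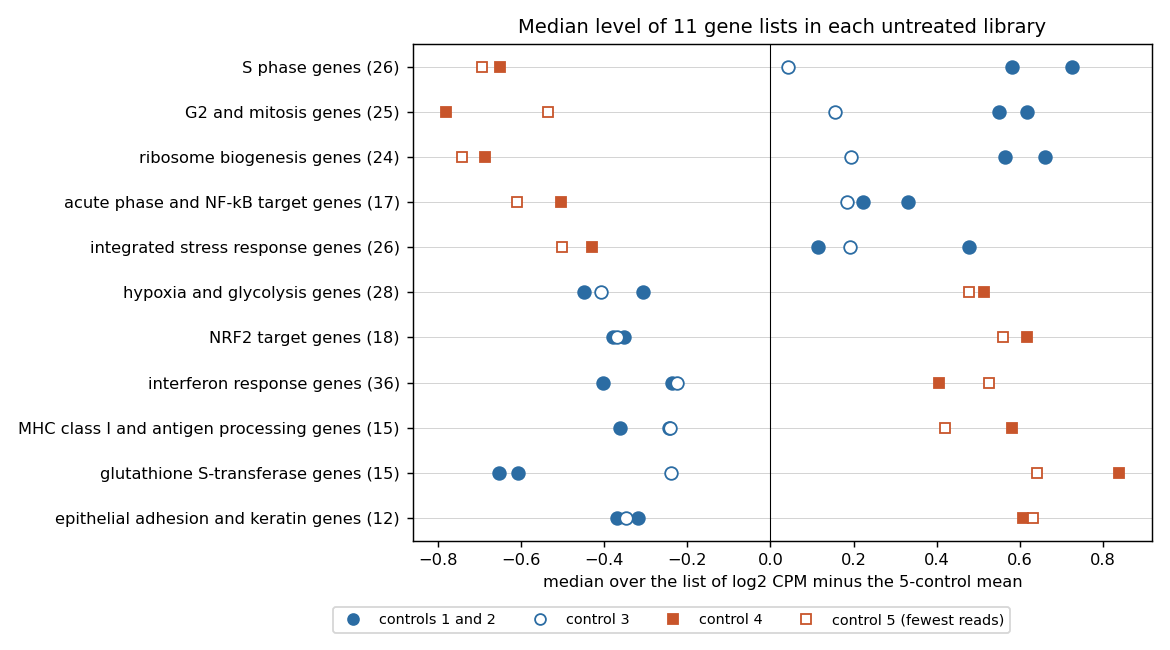
For 11 gene lists, the median over the tested genes of log2 CPM minus the mean of the 5 controls, less the median of the library over all tested genes, with 1 point per library; circles are controls 1 to 3 (open, control 3) and squares controls 4 and 5 (open, control 5). Control 3 lies partway for S phase, mitosis, ribosome biogenesis and glutathione S-transferase genes and beside controls 1 and 2 for hypoxia, NRF2 and epithelial genes.

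Control 3 did not stand at 1 fixed distance between the sets. For the S phase genes its median lay 46.1% of the way from controls 1 and 2 to controls 4 and 5, for mitosis genes 34.5% and for ribosome biogenesis 31.5%. For NRF2 targets, epithelial genes and hypoxia genes it lay at -0.4%, -0.4% and -3.5%, that is, with controls 1 and 2. Among the 1991 genes of the size rule, it was nearer to controls 4 and 5 than both other libraries of its set in 1313 (65.9%).

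The position of a gene in the genome was not used to choose the sets, and the medians of 16 of 20 chromosomes did not overlap between them. Among single tested genes the share without overlap was 71.0%. Some of the 16 chromosomes differed by little, such as chromosomes 13 (0.0097) and 4 (0.021). For each library the median over a chromosome's tested genes was taken of log2 CPM minus the mean of the 5 controls, less the library's median over all tested genes. For the 807 genes of chromosome 5 this was 0.126, 0.116 and 0.104 in controls 1 to 3 and -0.175 and -0.161 in controls 4 and 5, and 260 of the 807 (32.2%) had a difference above 0, against 50.8% of all tested genes. For the 448 genes of chromosome 19 it was -0.111, -0.115 and -0.0971 against 0.172 and 0.162, with 308 (68.8%) above 0. For the 409 genes of chromosome 14 it was -0.0837, -0.0795 and -0.084 against 0.105 and 0.133, with 260 (63.6%) above 0. Smaller differences of the medians were seen on chromosomes 3 (-0.118), 17 (-0.118), 7 (0.115) and 6 (0.110). A median over a whole chromosome can hide a shift of 1 part. Chromosome 11 differed by -0.017 as a whole. Its overlapping windows of 50 genes from chr11:4257557 to chr11:47988969 had median differences of -0.30 to -0.47. On chromosomes 5, 19 and 14 control 3 lay beside controls 1 and 2. On chromosome 5 the medians of the difference were -0.24 to -0.34 in 4 blocks of 201 or 202 genes. Windows of 50 genes were less even there. Their medians ran from -0.51 (chr5:86997159-100068760) to 0.02 (chr5:115429599-122354233). On chromosome 19 the median difference was 0.47 and 0.45 in the first 2 blocks of 112 genes (chr19:3259076-6262335 and chr19:6276725-20727562, mm10), 0.27 in the third and 0.04 in the last (chr19:42147400-61140840). Genes of 1 chromosome are not independent, and no test was made.

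**Figure D5:**
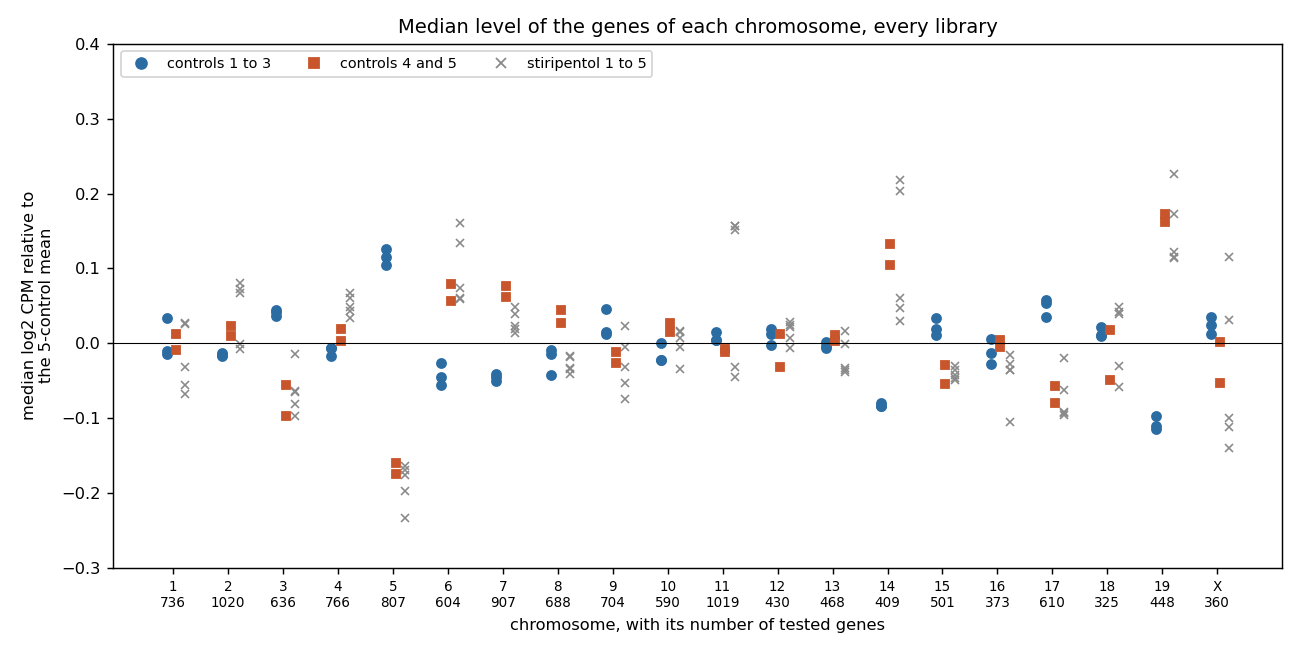
Median log2 CPM of the tested genes of each chromosome relative to the mean of the 5 controls and to the library's own median, 1 point per library; circles are controls 1 to 3, squares controls 4 and 5 and crosses the 5 stiripentol libraries. On chromosomes 5 and 19 the 2 control sets lie on opposite sides of 0 and all 5 crosses lie on the side of controls 4 and 5.

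The stiripentol libraries, in which a gene with no reads has the same value as in controls 4 and 5, are given only as values and were neither grouped nor tested. On chromosome 5 all 5 lay between -0.234 and -0.164 and on chromosome 19 between 0.114 and 0.226, on the side of controls 4 and 5 in both cases. Of the 1991 genes of the size rule, between 1026 (51.5%) and 1271 (63.8%) were nearer to the mean of controls 4 and 5 than to that of controls 1 to 3 in a single stiripentol library; for 756 genes (38%) this held in all 5 and for 455 (22.9%) in none. Twist1 was at -3.27 to -1.32 log2 CPM, Igf2 at 0.25 to 2.84 and Col3a1 at 0.49 to 2.00 in the 5 stiripentol libraries. All these values lay nearer to controls 4 and 5 than to controls 1 to 3. For Col3a1 all 5 were below controls 4 and 5. For Twist1 and Igf2, stiripentol 1 and 2 were below controls 4 and 5 and stiripentol 3 to 5 above them. Cdc6 ranged from 2.28 to 4.61 and Aldoc from 2.81 to 3.70, so that for Aldoc all 5 lay nearer to controls 1 to 3.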

How the data were processed

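RNA sequencing of 5 control and 5 stiripentol libraries of the mSCLC line was examined, and the comparison used the controls. The authors deposited 1 table of log2 CPM per gene, made with GENAVi from counts on mm10 per their methods and processing notes; the aligner and counter are not given in the sources used here. The labels name a TruSeq total RNA kit and the study's methods a 3′ kit, so the order of levels between genes is uncertain. Level was used to filter the genes tested and the largest differences, to pick the stable genes and to describe markers of the line. These uses share that uncertainty. The values were whole multiples of 1 read in every library (100% within 0.1 read), which gave the read totals. The authors' means, tests and fold changes in the same table were not used. Of the rows, 14 were named by date numbers and 42 symbols were repeated. limma 3.58.1 in R 4.3.3, with a mean-variance trend, was fitted to the deposited log2 values of the tested genes, after it had been tested on simulated data, and folds are powers of 2 of the log2 difference. Calls used a Benjamini-Hochberg adjusted p below 0.05, and 3 residual degrees of freedom lay behind each spread. Every p in the text is from this limma fit unless another is named. Named genes were the 12 largest differences in each direction among called, non-overlapping genes that were not predicted genes and had a mean log2 CPM of at least 4 in the higher set, up to 2 called members of each list in each direction, a fixed set of lineage and adhesion genes, the deleted genes, genes listed in 1 set only and the 10 highest genes with a range below 0.5. Other list members given with values were chosen after their values were seen. The members, lists and promoter motifs were chosen with earlier results of these data known. Gene positions came from GENCODE M21 on GRCm38 (mm10), which matched 12420 of the 12481 tested rows, and promoters from RefSeq. Figures were drawn with matplotlib 3.10.9. Some results are not reported here.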

Additional observations from a re-analysis of the deposited data

Results flagged for a closer look

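Of 205 groups of 5 controls examined, 6 held a library that stood apart from the other 4 by Dixon's criterion, and chance alone marks about 1 in 20. Control 5 stood apart by its 22375625 reads, by Epcam at -3.61 log2 CPM, which is a single read, and by the summed level of Rb1 and Trp53, at 12.6 CPM. Control 3 stood apart by Hsp90ab1 at 11.66 log2 CPM, by the summed level of YAP, TEAD and target genes at 8609 CPM, and by that of heat shock genes, Hspd1 included, at 7521 CPM.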

How the results depend on the processing

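No paired analysis was possible because the comparison was made within 1 labelled group, whose replicate numbers pair nothing. When each control was left out in turn, the number of called genes ran from 3748 to 8355, higher calls from 1856 to 4240 and lower calls from 1892 to 4115, with the lowest numbers without control 4 and the highest without control 3. With every gene that had at least 1 read in any control, 3232 genes met the size rule, 1718 higher and 1514 lower. With at least 30 reads in the higher set, 2 genes were listed only in controls 4 and 5 and 21 only in controls 1 to 3. With a range below 1 instead of 0.5, 9031 genes counted as shared. The other filters, scalings, pseudocounts, thinning to the smallest control and limma voom left the total of calls between 6054 and 7103. The balance of calls did turn: there were 3053 higher and 3385 lower with scaling by the median ratio, and 1885 higher and 1984 lower without control 5. Under the size rule, 941 were higher and 1057 lower with quantile normalization, and 943 and 1053 with scaling by the median ratio. No named gene that passed in the main run or in an alternative run changed direction between the 2. This does not cover named genes that passed in neither. Ncam1 was such a gene, and its control 4 value, 6.56 log2 CPM, lay below the mean of controls 1 to 3, 6.67. List medians near 0 changed direction when 1 control was left out, such as those of collagen and matrix genes (0.03 without control 3), heat shock genes (-0.03 without control 3) and nuclear respiratory chain genes (0.06 without control 5). The cause of the other shifts was not tested. Genes with few reads in control 5 are those whose values depth limits most.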

Other observations

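Genes of sterol and fatty acid synthesis had 8 of 30 tested members called higher in controls 4 and 5, or 5 without control 5, and 2 lower, or 9 without control 3. Their summed level was 7201, 6703 and 4281 CPM in controls 1 to 3 and 6448 and 7723 CPM in controls 4 and 5, so that control 3 was the lowest of the 5. Calls made up 33.3% of the sterol list, below the 51.6% of all tested genes. Of 11 tested Hox genes, which keep a record of body position, 2 were called higher and 1 lower (27.3% in all), with 5 lower without control 3. Of 6 tested histone genes, 3 were called higher and 1 lower, and small RNAs without a poly(A) tail summed to 7.14 to 8.54 CPM in controls 1 to 3 and to 13.2 and 14.2 CPM in controls 4 and 5. The part of library preparation in that difference was not tested.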
